A study of Mus musculus with 4 samples.

Results

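Cd4, Cd8a and Cd8b1 encode the T cell coreceptors, and they are described here as UMIs (unique molecular identifiers, the counted RNA molecules) per cell and as pairwise detection in the same cell. The members are the rows with these 3 symbols in a table of 14721 genes and 10558 cells, so 3 of 14721 genes were followed. All 3 were found under those symbols.

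The cells came from mice carrying B16F10, a transplantable mouse melanoma line. The labels give all 4 samples the strain RAG1- BW TRP-1 TCR, the treatment untreated and the source sorted CD4+ and CD4+CD8+ T cells of B16 tumors. Their protocols also state that a single cyclophosphamide dose of 250 mg/kg was followed by transfer of CD4+ T cells bearing a receptor for TRP1, a melanocyte protein, and that tumors were taken 11 days after transfer. The samples were an RNA and a receptor library of the tumor (titled transgenic and endogenous) and an RNA and a receptor library of lymph node (titled endogenous). The lymph node samples are thus given a source of CD4+ tumor cells, while their titles name lymph node. Many lymph node cells were labelled Cd8 and few of those had Cd4 UMIs, unlike that source. How a sort on surface CD4 and CD8 shaped the coreceptor values was not tested. Age, the number of pooled animals and the sort gates are not stated in the labels.

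Each tissue had 1 RNA library, so no difference below has a replicate, no p-value was computed, and every interval covers counting error only. Tissue, cell origin and library cannot be told apart in any comparison of tumor with lymph node. The authors' annotation gives each cell a label, and no source used here gives the rule behind it, which may have used the coreceptor genes. Levels by label are therefore descriptions. What the label Tdp stands for is not stated.

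CD4 is a single chain that binds MHC class II, whereas CD8 is built from an alpha chain (Cd8a) and a beta chain (Cd8b1) and binds MHC class I. Both bring the kinase Lck to the T cell receptor. Developing thymocytes carry both coreceptors before they keep one of them. ThPOK, the product of Zbtb7b, holds the CD8 genes down in CD4 cells, and Runx3 holds Cd4 down in CD8 cells.

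The Cd8 genes are neighbours. In the RefSeq table of build GRCm38.p6, Cd8b1 lies on chromosome 6 from 71322788 to 71337492 and Cd8a on chromosome 6 from 71373427 to 71379171. A gap of 35934 bases with 0 other listed genes separates them. Cd4 lies on the same chromosome from 124864693 to 124888247. The RefSeq promoter table (GRCm38.p6) had an entry for 1 of the 3 genes, Cd8a, and its 250 bases before the gene start are shown. The UMI counts do not test this sequence. The stretch is chr6:71373177-71373426 on the plus strand, and capitals mark matches to CANNTG, the E-box letters bound by basic helix-loop-helix factors.
Cd8a promoter: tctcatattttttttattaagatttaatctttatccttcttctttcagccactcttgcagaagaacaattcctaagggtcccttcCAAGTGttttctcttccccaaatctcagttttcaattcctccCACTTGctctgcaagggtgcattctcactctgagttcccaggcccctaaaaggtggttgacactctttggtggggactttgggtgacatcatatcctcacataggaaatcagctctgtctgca
CANNTG, searched on both strands (it is its own reverse complement), matched 2 times here and occurred in 66.2% of 32851 promoters of the table, counted over the same 250 bases before each start. TGTGGT, the letters of the Runx core site, and AGATAA, those of a GATA site, were searched on both strands too. Neither was in this window; 14.0% and 9.99% of promoters held them. Matches are descriptions of letters only.

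In tumor, 33147030 UMIs were spread over 5570 cells (median 5862.5 per cell), and in lymph node 29067001 UMIs over 4988 cells (median 5596.5). Levels are given in CPM, UMIs scaled to a total of 1000000 per group. All 8 T cell markers reached 20 CPM in each of the 6 label groups with 50 or more cells, with sums of 3976 to 10954 CPM. Natural killer, dendritic, macrophage and melanoma marker sums stayed at or below 23.7 CPM, and none of these markers reached 20 CPM. The highest were Itgax and Cd68 in tumor Tdp-labelled cells, at 19.6 and 13.0 CPM, against 0.716 and 3.08 CPM in tumor Cd4-labelled cells. Ncr1 and Adgre1 were at 0 in all 3 tumor groups, and Adgre1 in the lymph node groups too. B cell marker sums were 8.17 to 28.5 CPM in tumor and 218 to 455 CPM in lymph node; Ighm was the highest of them in every group, and Cd79b reached 19.3 CPM in lymph node Cd8- and 28.4 CPM in Treg-labelled cells. Between the libraries, 36 cell barcodes were shared.

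Cd4 UMIs were present in both of the large tumor label groups and were scarce in lymph node cells labelled Cd8. In 2693 tumor Tdp-labelled cells the Cd4 level was 289 CPM (exact Poisson 95% interval 281 to 297). In 2451 tumor Cd4-labelled cells it was 413 CPM (403 to 424), and in 406 tumor cells labelled Tcell it was 340 CPM (302 to 382). Among tumor groups the order was thus Cd4, Tcell, Tdp, with no overlap of the counting intervals. In lymph node, 1873 Cd4-labelled cells had 159 CPM (151 to 167), 321 Treg-labelled cells 137 CPM (121 to 155) and 2788 Cd8-labelled cells 13.0 CPM (11.4 to 14.7). The lymph node Cd4 and Treg intervals overlapped, and every tumor group lay above every lymph node group.

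A Cd4 UMI was seen in 78.5% of tumor Tdp-labelled cells, at a median depth of 6633 UMIs, and in 84.4% of tumor Cd4-labelled cells, at 5533 UMIs. The median cell held 2 Cd4 UMIs in both groups (quartiles 1 and 3 in both), so detection rested on few molecules per cell. In lymph node, 50.7% of Cd4-labelled cells (median depth 4763 UMIs) had a Cd4 UMI, and 63.3% of those had exactly 1. The share in lymph node Cd8-labelled cells was 4.59% at a median depth of 6306 UMIs. Each cell was also thinned to 2000 UMIs, a depth that 257 cells of the tumor and 100 of the lymph node library did not reach. These 4 shares were then 42.1%, 55.8%, 27.6% and 2.06%.

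**Figure D1:**
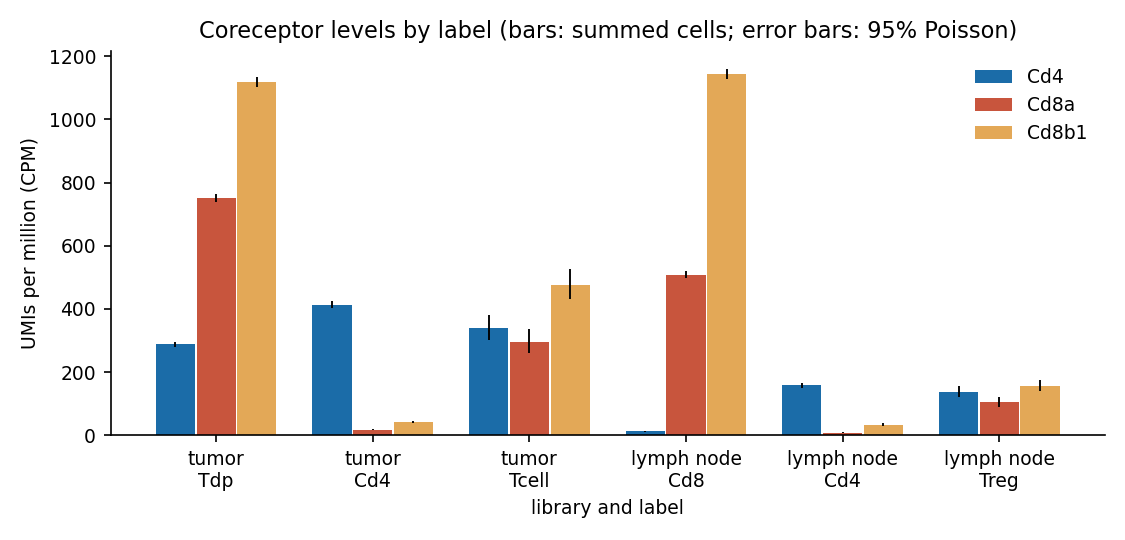
Levels of Cd4, Cd8a and Cd8b1 in CPM (vertical axis) in the 6 library and label groups with 50 or more cells; bars are summed cells and error bars exact 95% Poisson intervals. All 3 genes stand high together in tumor Tdp-labelled cells (289, 751 and 1118 CPM), whereas lymph node Cd8-labelled cells pair high Cd8a and Cd8b1 with 13.0 CPM of Cd4.

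The Cd8 chains were high in 2 groups, tumor Tdp and lymph node Cd8. Cd8a, the chain that binds Lck, was at 751 CPM (738 to 763) in tumor Tdp-labelled cells and at 509 CPM (498 to 519) in lymph node Cd8-labelled cells. It followed at 297 CPM (261 to 336) in tumor Tcell-labelled cells and 105 CPM (91.0 to 121) in lymph node Treg-labelled cells. Cd4-labelled cells were lowest, with 17.5 CPM (15.4 to 19.9) in tumor and 7.56 CPM (5.87 to 9.58) in lymph node. No neighbouring intervals overlapped in this order.

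Cd8b1, the beta chain that is carried to the surface with the alpha chain, kept the same order but for its top. It was at 1144 CPM (1128 to 1160) in lymph node Cd8-labelled cells and 1118 CPM (1102 to 1133) in tumor Tdp-labelled cells, whose intervals overlapped. Tumor Tcell- and lymph node Treg-labelled cells had 477 CPM (431 to 526) and 157 CPM (139 to 175). In Cd4-labelled cells the level was 41.2 CPM (37.9 to 44.7) in tumor and 33.6 CPM (29.9 to 37.6) in lymph node.

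Per cell, the median tumor Tdp-labelled cell held 4 Cd8a UMIs (quartiles 2 and 7) and 7 Cd8b1 UMIs (4 and 10). The median lymph node Cd8-labelled cell held 3 Cd8a UMIs (1 and 5) and the same 7 Cd8b1 UMIs (4 and 10). In tumor Tdp-labelled cells the SD over cells was 3.91 UMIs around a mean of 5.09 for Cd8a, 4.85 around 7.57 for Cd8b1 and 1.81 around 1.96 for Cd4. Cd8a was detected in 90.9% and Cd8b1 in 94.7% of tumor Tdp-labelled cells, and in 69.5% and 83.7% after thinning. In lymph node Cd8-labelled cells the shares were 86.3% and 94.3%, and 58.3% and 84.3% after thinning.

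**Figure D2:**
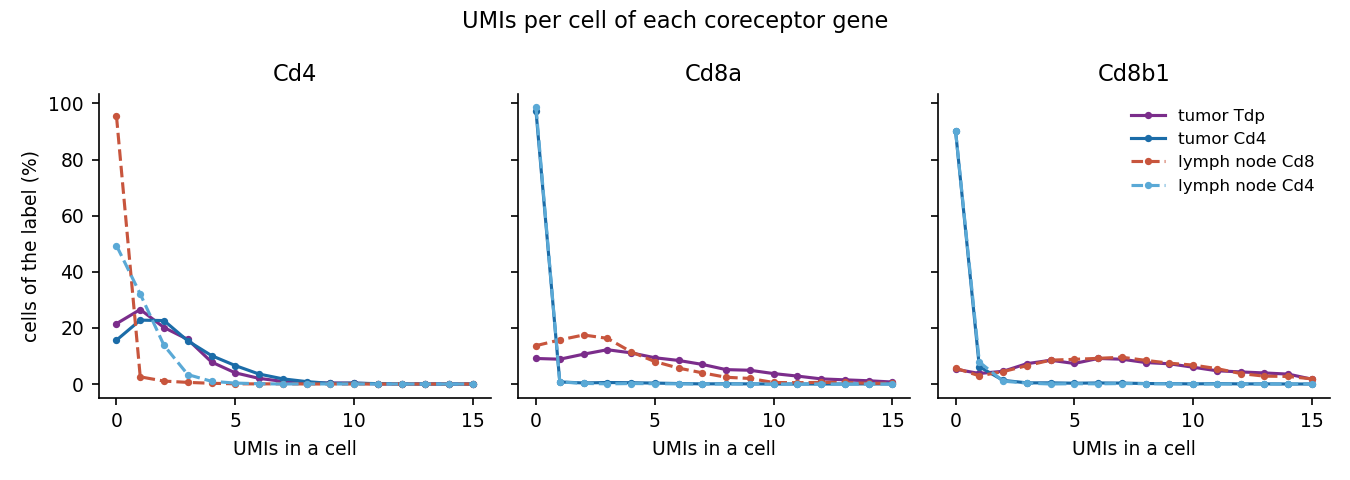
Share of cells (vertical axis, %) by the number of UMIs of each coreceptor gene in a cell (horizontal axis, shown to 15) in the 4 largest groups. The Cd8b1 curves of tumor Tdp- and lymph node Cd8-labelled cells lie on each other with a median of 7 UMIs, and the Cd4 curve of Tdp-labelled cells lies near that of tumor Cd4-labelled cells with a median of 2.

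A total of 4 label pairs were compared, and they share groups, so their values are not independent of each other. A gene was counted where either group reached 20 CPM and called at a 2-fold ratio of CPM plus 1, without a test. For tumor Tdp- against tumor Cd4-labelled cells 3.49% of 4820 genes were called (1.18% higher, 2.30% lower). Cd8a was 42.8-fold higher (interval 37.7 to 48.8) and Cd8b1 27.1-fold higher (24.99 to 29.54), above every other gene counted. Cd4 was 1.43-fold lower (1.38 to 1.48), a log2 ratio of −0.52 (−0.57 to −0.46), which is within 2-fold; the median gene was at −0.11. Scaling by TMM moved all log2 ratios of this pair up by 0.12, which put Cd4 at −0.40.

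For lymph node Cd8- against Cd4-labelled cells 3.55% of 4530 genes were called (2.12% higher, 1.43% lower). Here Cd8a was 67.3-fold higher (53.0 to 86.7), Cd8b1 34.1-fold higher (30.4 to 38.3) and Cd4 12.2-fold lower (10.7 to 14.1). Since the labels may rest on these genes, neither set of counts is read further. The Cd4 gene stood at 289 against 413 CPM between the tumor labels and at 13.0 against 159 CPM between the lymph node labels.

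Across the libraries, 16.5% of 4837 genes were called for tumor Tdp- against lymph node Cd8-labelled cells (11.4% higher, 5.13% lower). Cd4 was 22.3-fold higher in the tumor cells (19.5 to 25.5). Cd8a was 1.48-fold higher (1.44 to 1.52), a log2 ratio of 0.56, and the log2 ratio of Cd8b1 was −0.03 (−0.06 to −0.01); both were within 2-fold. With receptor, mitochondrial and ribosomal protein genes left out of the total the ratios were 0.25 for Cd8a and −0.35 for Cd8b1. For tumor against lymph node Cd4-labelled cells 21.0% of 5134 genes were called (14.7% higher, 6.21% lower). Cd4 was 2.60-fold higher in tumor (2.45 to 2.76) and Cd8a 2.32-fold higher (1.77 to 3.08), while Cd8b1 was 1.23-fold higher (1.07 to 1.41) and within 2-fold. With the same genes left out of the total the log2 ratio of Cd4 was 1.07 against 1.38. For Cd8a that setting was not run, and its ratio rests on 69 tumor and 26 lymph node cells with Cd8a.

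In tumor Tdp-labelled cells Cd4 and the Cd8 chains were detected together in most cells, at the rate that their single shares multiply to. Cd4 and Cd8a were both seen in 71.6% of cells (exact Clopper-Pearson 95% interval 69.8% to 73.3%), and the product of the single shares was 71.4%. Cd4 and Cd8b1 were both seen in 74.8% (73.1% to 76.5%), with a product of 74.4%. Cd8a and Cd8b1 were both seen in 89.8% (88.5% to 90.9%), above their product of 86.1%. Joint detection moved with depth. At 2000 UMIs per cell the joint shares were 29.2%, 35.3% and 61.2% and the products 29.2%, 35.2% and 58.2%. In each of 5 equal groups of cells by depth, Cd4 with Cd8a also lay within 1 percentage point of the product, from 52.3% against 52.9% in the shallowest group to 85.3% against 85.0% in the deepest.

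By pattern, 1915 tumor Tdp-labelled cells had all 3 genes (71.1%) and 502 had both Cd8 chains without Cd4 (18.6%). A further 100 had Cd4 and Cd8b1, 86 had Cd4 alone, 34 Cd8b1 alone, 25 none, 18 Cd8a alone and 13 Cd4 and Cd8a. The cells with all 3 had a median of 6951 UMIs and those with both Cd8 chains but no Cd4 5897.5, so the second set was shallower. Gzmb (granzyme B) was at 3139 and 3053 CPM in these sets and Zbtb7b at 8.75 and 8.51 CPM. Havcr2 (TIM-3) was at 157 and 141 CPM and Il2ra (CD25) at 85.7 and 69.1 CPM. At these unequal depths Havcr2 was seen in 60.3% (58.0% to 62.5%) and 47.2% (42.8% to 51.7%) of cells. The 86 cells with Cd4 alone had 1689 CPM of Gzmb and 24.8 CPM of Zbtb7b, and 30.2% of them (20.8% to 41.1%) had a UMI of Cd40lg, the helper ligand CD40L, against 1.88% (1.32% to 2.59%) of cells with all 3 genes. Tumor Cd4-labelled cells with Cd4 alone had 430 CPM of Gzmb, 32.5 CPM of Zbtb7b and Cd40lg in 50.8%. The 86 cells lay between these sets in those 3 genes but not in Ikzf2 (Helios), at 41.4 CPM against 2.99 CPM with all 3 coreceptor genes and 14.1 CPM in the Cd4-labelled set. That Ikzf2 level rests on 20 UMIs. Ikzf2 was seen in 11.6% of the 86 cells (5.72% to 20.3%) and 5.74% of the Cd4-labelled set (4.72% to 6.90%), with overlapping intervals.

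**Figure D3:**
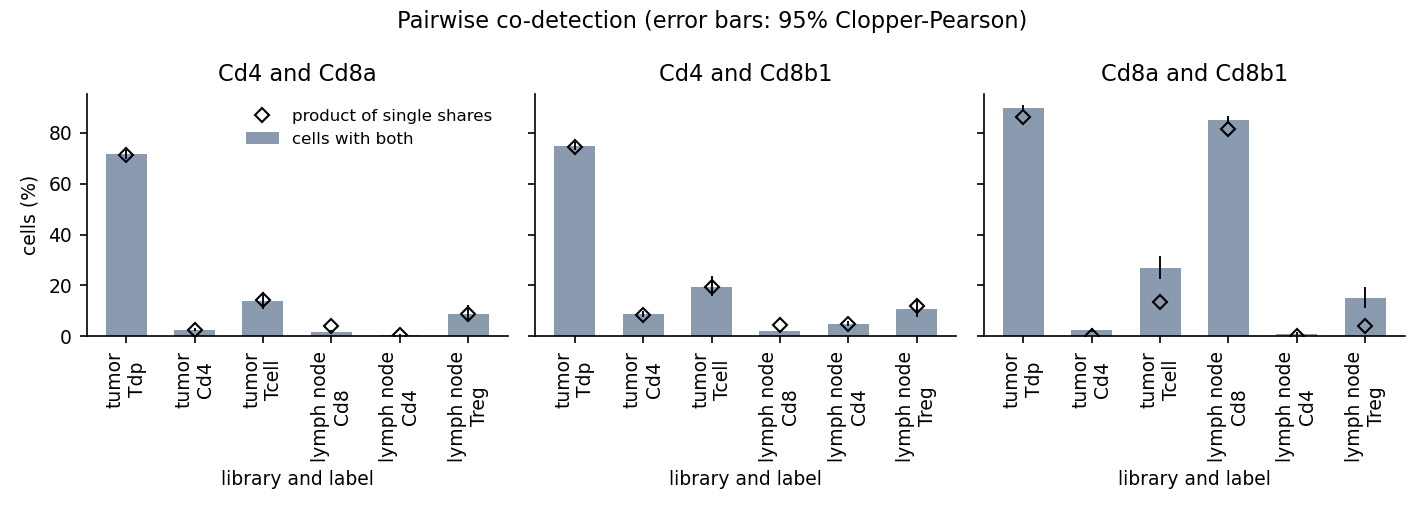
Share of cells (vertical axis, %) with UMIs of both genes of each pair in 6 label groups (bars, exact 95% intervals) and the product of the single shares (diamonds). For Cd4 with a Cd8 chain the bars meet the diamonds in tumor Tdp-labelled cells (71.6% against 71.4% for Cd8a) and fall under them in lymph node Cd8-labelled cells (1.76% against 3.96%). The lymph node Cd8 group includes 71 cells with Cd4 and neither Cd8 chain.

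In lymph node Cd8-labelled cells the joint shares of Cd4 with a Cd8 chain lay below the products, outside their counting intervals. The group includes 71 cells with Cd4 and neither Cd8 chain, described below, and the shares were not computed without them. Cd4 and Cd8a were both seen in 1.76% of cells (1.30% to 2.32%) against a product of 3.96%, and Cd4 and Cd8b1 in 2.01% (1.52% to 2.60%) against 4.33%. Cd8a and Cd8b1 were together in 85.1% against 81.4%, as in tumor Tdp-labelled cells above the product. After thinning, the 3 joint shares were 0.253%, 0.616% and 51.8%, with products of 1.20%, 1.74% and 49.1%.

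The few lymph node Cd8-labelled cells with UMIs of both coreceptors were deep and often had more than one receptor beta chain. They numbered 57, with a median of 9794 UMIs, and 22 of the 50 with a beta chain call (44.0%) had 2 or more. Cells with a Cd8 chain only had a median of 6326 UMIs, and 149 of 2440 (6.11%) had 2 or more beta chains. Of 5 depth groups, the deepest had Cd4 and Cd8a together in 6.81% of cells and the shallowest in 0 of 558, which allows a share of up to 0.538% there. Without cells of 2 or more beta chains the joint share of Cd4 and Cd8a was 1.07%, and that of Cd4 and Cd8b1 1.34%, an alternative chosen after seeing the data. A tumor comparison of this kind could not be made: 0 tumor cells had 2 or more beta chains, so doublets of tumor cells cannot be counted that way. The part of doublets in the tumor co-detection was not tested.

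Another 71 lymph node Cd8-labelled cells had Cd4 and neither Cd8 chain. They held RNA of genes of helper cells: 49.3% of them (37.2% to 61.4%) had a Cd40lg UMI against 2.30% (1.76% to 2.95%) of cells with a Cd8 chain only, and Zbtb7b stood at 23.9 against 1.06 CPM. Ctla4, an inhibitory receptor, was at 396 CPM and Ikzf2 at 93.1 CPM, against 45.6 and 3.01 CPM in lymph node Cd4-labelled cells with Cd4 alone. Foxp3, the regulatory T cell factor, was at 2.39 CPM (1 UMI) against 3.93 CPM in the same sets, and Il2ra at 11.9 against 5.78 CPM. Treg-labelled cells with Cd4 alone had 444 CPM of Foxp3 and 371 CPM of Il2ra. Of the 71, 2 had 2 or more beta chains. For these cells the label and the coreceptor RNA differed. Cd4 itself was at 129 CPM (107 to 155) in the 127 Cd8-labelled cells with a Cd40lg UMI and at 6.91 CPM (5.73 to 8.27) in those without.

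Within tumor Tdp-labelled cells the Cd4 level ranged from 262 to 324 CPM over sets by Cd8a, highest in the set with the most Cd8a. In cells with 0, 1, 2, 3 to 4, 5 to 8 and 9 or more Cd8a UMIs it was 310, 264, 262, 288, 275 and 324 CPM. The counting interval of the last set (306 to 342) lay above those of the sets with 1 to 8 Cd8a UMIs. It overlapped that of the set with 0 (280 to 341). Cd8b1 over the same cells was 427, 897, 1030.1, 1070.2, 1207 and 1381 CPM, higher at each step. Median depth ran from 5223 UMIs in the first set to 7697 in the last; CPM is scaled to depth. Split the other way, cells with 0 Cd4 UMIs had 722 CPM of Cd8a (693 to 751) and those with 5 to 8 had 784 CPM (742 to 827). The 23 with 9 or more had 875 CPM (754 to 1009). These intervals leave out the spread between cells, which for Cd8a exceeds counting error (variance 3.01 times the mean). They do not decide whether the 23 cells differ from the first set. Across the 2693 cells, which share a library, Pearson's r of log-scaled levels was 0.02 for Cd4 with Cd8a, 0.03 for Cd4 with Cd8b1 and 0.51 for Cd8a with Cd8b1 (0.01, 0.02 and 0.21 after thinning).

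Of the 128 lymph node Cd8-labelled cells with Cd4, 71 had neither Cd8 chain; these are the cells above whose label and coreceptor RNA differed. The values here include them and were not computed without them, so they do not describe the other Cd8-labelled cells alone. Cd4 stood at 80.0 CPM (68.2 to 93.2) in the 381 cells without Cd8a and at 2.21 to 7.73 CPM in the sets with 1 or more Cd8a UMIs. In the 158 cells without Cd8b1 it was 190 CPM (161 to 222). Pearson's r over the 2788 cells was −0.29 for Cd4 with Cd8a, −0.43 for Cd4 with Cd8b1 and 0.43 for Cd8a with Cd8b1 (−0.13, −0.21 and 0.20 after thinning).

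**Figure D4:**
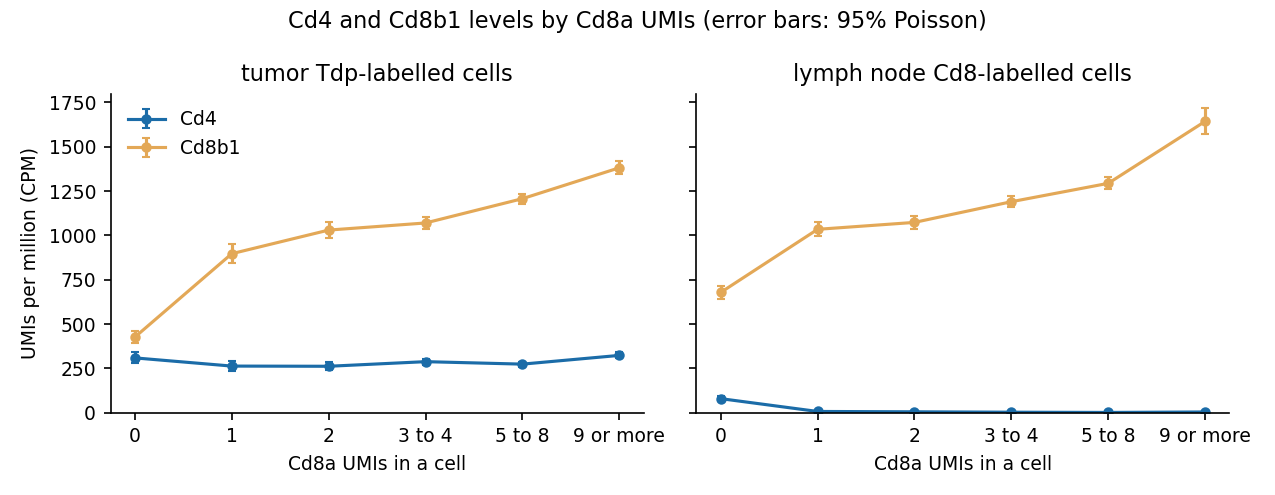
Cd4 and Cd8b1 levels (CPM, vertical axis) in cells grouped by their Cd8a UMIs (horizontal axis), in tumor Tdp-labelled (left) and lymph node Cd8-labelled cells (right), with exact 95% Poisson intervals. Cd8b1 is higher in each further set on both sides, while Cd4 stays between 262 and 324 CPM on the left and drops from 80.0 CPM to under 8 CPM on the right. The first set on the right includes 71 cells with Cd4 and neither Cd8 chain.

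The balance of the CD8 chains differed between label groups, in both libraries. Cd8a made up 40.2% of the summed Cd8a and Cd8b1 UMIs in tumor Tdp-labelled cells (39.7% to 40.7%) and 30.8% in lymph node Cd8-labelled cells (30.3% to 31.3%). This share does not depend on how totals are scaled, and after thinning it was 40.0% and 30.6%. Tumor Tcell-labelled cells, at a median of 2040 UMIs, gave 38.3% (34.6% to 42.2%). Tumor Cd4-labelled cells gave 29.9% (26.8% to 33.1%), near the lymph node Cd8 value. Lymph node Treg-labelled cells gave 40.2% (35.8% to 44.6%), near the tumor Tdp value, and lymph node Cd4-labelled cells 18.4% (14.6% to 22.7%). After thinning these 3 were 28.0%, 49.6% and 12.6%. The tumor Cd4 value mixes unlike cells, with 5.16% in those with 1 Cd8 UMI and 41.2% in those with 11 or more. So does the Treg value, with 10.3% at 1 Cd8 UMI, 62.9% (49.7% to 74.8%) at 3 to 5 and 38.3% at 11 or more. Among Treg-labelled cells with all 3 genes, 17 of 22 had 2 or more beta chains. What sets these shares was not tested. Within tumor Tdp-labelled cells the balance was 40.1% with and 40.3% without Havcr2, and 40.2% both with and without Mki67, a cell cycle gene. It was 45.6% (41.5% to 49.7%) in the 76 with Cd40lg and 45.1% (40.8% to 49.4%) in the 80 without Gzmb, and both of these sets had less of each chain, at 438 and 633 CPM of Cd8a and 523 and 771 CPM of Cd8b1. With 1 library per tissue these differences in balance have no replicate.

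Cd4-labelled cells with Cd8b1 mostly held a single UMI of it. Cd8b1 was seen in 9.83% of tumor Cd4-labelled cells (8.68% to 11.1%) and in 9.77% of lymph node Cd4-labelled cells (8.46% to 11.2%), and Cd8a in 2.82% and 1.39%. At 2000 UMIs the Cd8b1 shares were 5.05% and 4.69% and the Cd8a shares 1.82% and 0.607%. Of Cd4-labelled cells with Cd8b1, 62.7% in tumor and 80.3% in lymph node had exactly 1 UMI of it, against 3.96% of tumor Tdp-labelled and 3.08% of lymph node Cd8-labelled cells with Cd8b1. The contribution of free RNA to single UMIs was not tested.

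The single Cd8 UMIs of Cd4-labelled cells were Cd8a less often than those of tumor Tdp- and lymph node Cd8-labelled cells. Among cells with exactly 1 Cd8 UMI it was Cd8a in 8 of 155 tumor Cd4-labelled cells (5.16%, 2.25% to 9.92%) and in 8 of 154 lymph node Cd4-labelled cells (5.19%, 2.27% to 9.98%). The same count in tumor Tdp-labelled cells was 12 of 41 (29.3%, 16.1% to 45.5%), and in lymph node Cd8-labelled cells 15 of 36 (41.7%, 25.5% to 59.2%). Cd4-labelled cells with 11 or more Cd8 UMIs, 18 in tumor and 7 in lymph node, had balances of 41.2% (35.4% to 47.2%) and 35.3% (26.7% to 44.8%). Low and high Cd8 counts in Cd4-labelled cells thus differed in their chains, and the cause was not tested. They differed in depth too, with medians of 5800 and 7777.5 UMIs in tumor and 4854 and 10581 UMIs in lymph node. Of lymph node Cd4-labelled cells with all 3 genes and a beta chain call, 3 of 4 had 2 or more beta chains.

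**Figure D5:**
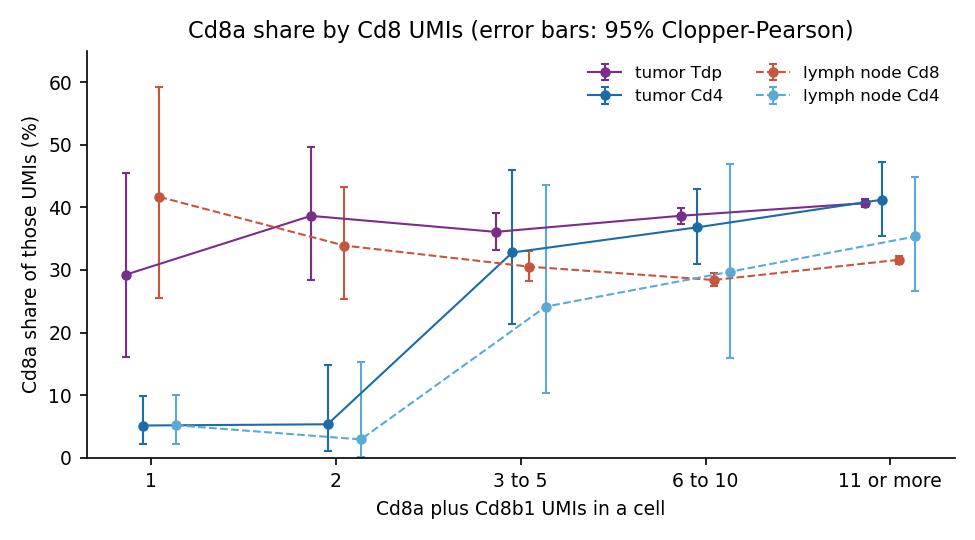
Cd8a share of the Cd8a plus Cd8b1 UMIs (vertical axis, %) by the number of those UMIs in a cell (horizontal axis) in 4 groups, with exact 95% intervals. Cd4-labelled cells of both libraries sit near 5% at 1 UMI (5.16% and 5.19%) and at 41.2% and 35.3% at 11 or more, whereas tumor Tdp-labelled cells range from 29.3% to 40.7%.

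Cd8a in tumor Cd4-labelled cells was concentrated in deep cells with Cd8b1. Both chains were together in 2.41% of cells (1.84% to 3.09%) against a product of 0.277%, while Cd4 with Cd8a, at 2.53%, and its product of 2.38% were close. The Cd8a share of cells was 0.611% in the shallowest of the 5 depth groups and 8.57% in the deepest. The 54 cells with all 3 genes had a median of 8704 UMIs, against 5602.5 in the 1846 with Cd4 alone. Their Gzmb was 1758 against 430 CPM, and Cd40lg was seen in 24.1% (13.5% to 37.6%) against 50.8%. Over the whole label, Cd8a was at 34.2 CPM (29.9 to 38.9) in cells with a Gzmb UMI and at 1.55 CPM (0.771 to 2.77) in those without. Cd4 was at 403 and 423 CPM in the same sets. Whether doublets or free RNA take part in these cells was not tested.

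Lymph node Treg-labelled cells, of which 237 of 321 had a UMI of Foxp3 (the regulatory T cell factor), had 17.1% of cells with Cd8a and 24.0% with Cd8b1. Cd8a and Cd8b1 were together in 15.0% (11.2% to 19.3%) against a product of 4.11%. The 24 cells with all 3 genes had a median of 10014 UMIs, and 17 of 22 (77.3%) had 2 or more beta chains. The 24 with both Cd8 chains and no Cd4 had a median of 7896 UMIs and 2 or more beta chains in 9 of 22 (40.9%). With Cd4 alone the values were 5146.5 UMIs and 9 of 112 (8.04%). Foxp3 was at 220 CPM, 215 CPM and 444 CPM in these sets, lower in those with both Cd8 chains, and was seen in 75.0%, 66.7% and 75.8% of cells at these unequal depths. The part of doublets in the Treg values was not tested.

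The molecules that work with the coreceptors were compared between tumor Tdp- and Cd4-labelled cells. Of 19 partners in receptor signalling, all counted, 0 were 2-fold higher and 2 lower, and the median log2 ratio was −0.19 against −0.11 for all genes. Those 2 were Cd247, the zeta chain of the receptor complex, at 197 against 527 CPM, and Cd5, an inhibitory surface receptor, at 116 against 241 CPM. Lck, the kinase bound by both coreceptors, was at 689 against 787 CPM, and Zap70, the kinase that acts next, at 253 against 384 CPM. Of 11 ligand genes, 7 were counted and 1 was lower, Cd74 (the class II invariant chain), at 7.18 against 20.6 CPM.

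Of 34 regulators of the coreceptor genes, 29 were counted, 1 was 2-fold higher and 3 were lower, with a median log2 ratio of −0.28. The higher one was Ikzf3 (Aiolos), at 147 against 52.8 CPM. Zbtb7b was at 9.32 against 31.6 CPM, Tox, a factor of CD4 lineage development, at 29.0 against 76.5 CPM, and Stat5a, a cytokine signal transducer, at 13.8 against 34.5 CPM. Runx3 was within 2-fold, at 81.3 against 107 CPM. Over the 3 lists, 7 of 55 genes were 2-fold apart (12.7%), beside 3.49% of all genes counted.

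In lymph node, Cd8- against Cd4-labelled cells, 0 of 18 partners and 0 of 7 ligand genes were 2-fold apart, beside 3.55% of all genes counted. Of 32 regulators, 3 were apart (9.38%): Myb was higher (26.7 against 10.6 CPM), and Zbtb7b (2.32 against 31.0 CPM) and Runx1 (29.0 against 73.7 CPM) were lower. Zbtb7b in tumor Tdp-labelled cells, at 9.32 CPM, lay between lymph node Cd8- and Cd4-labelled cells. Runx3 was at 74.7 against 49.1 CPM in lymph node.

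The genes most like each member were ranked over label groups and over tumor cells, and the Cd8 chains were nearest to each other in both. Over the 6 label groups, which share 2 libraries, Pearson's r of log2(CPM + 1) was 0.99 between Cd8a and Cd8b1 among 2999 genes. After Cd8b1, Cd8a was most like Ndufa6 (0.95), Sec61b (0.94), Gm30054 (0.94) and Mrpl34 (0.93), and after Cd8a, Cd8b1 was most like Sec61b (0.93), Rnf138 (0.92), Ndufa6 (0.91) and Gm30054 (0.91). Cd4 was most like Atp6v1g1 (0.97), Mff (0.96), Ccdc59 (0.95), Zbtb38 (0.94) and Sf1 (0.94). With only 6 points, which include Cd4-labelled and Cd8-labelled groups, high values are common.

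Across the 5570 tumor cells, which share a library and differ in depth, Cd8a and Cd8b1 had r = 0.84 among 6733 genes. Next for Cd8a came the cytotoxic cell genes Ccl5 (a chemokine, 0.68), Gzmb (0.61), Ly6c2 (0.54) and Prf1 (perforin, 0.49), and the same 4 followed for Cd8b1 at 0.72, 0.66, 0.59 and 0.51. For Cd4 no gene was above 0.18: Srgn (0.18), Tnfrsf4 (the costimulatory receptor OX40, 0.17), Sdf4, Cd82 and Thy1 (0.15 each). These cells span the Tdp and Cd4 labels, so the r values repeat the contrast of the labels.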

How the data were processed

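UMI counts per gene and cell, raw and whole, were deposited by the authors for both RNA libraries in a single table of 14721 genes. Cell Ranger 3.1.0 and the build mm10 were named, per the submitters' processing notes. A second deposited table holds other values per cell: library, label and receptor chains. No source used here gives the cell filters, doublet treatment or label rule, and no doublet caller was run. No table column was left unmatched (0).

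UMIs were summed over the cells of a label and scaled to CPM with Poisson intervals. Shares have Clopper-Pearson intervals, and ratios have exact conditional Poisson intervals, all at 95%. A gene was counted from 20 CPM and called at 2-fold, with a pseudocount of 1 CPM. Shares of 0 were given an upper limit of 3 counts. Cells were thinned without replacement to 2000 UMIs (seed 7). Scaling to TMM used edgeR 4.0.16 in R 4.3.3; other steps used Python 3.11.15, numpy 2.4.6, pandas 2.3.3 and scipy 1.17.1. The ratio step was tested on simulated data.

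Named genes were the members, the 5 genes with the highest Pearson r to each (over 6 label groups, from 50 CPM, and over tumor cells, from 5% of cells), pathway genes 2-fold apart with up to 4 others per list, and state genes; Il2ra, Ikzf2 and Ctla4 in subsets of cells were chosen after their values were seen. The members and lists were chosen with earlier results of these data known. Depth per library is given with the results. Alternatives were other scalings, thinning, a threshold of 2 UMIs, other minimums and pseudocounts, and leaving out deep cells, cells with 2 or more beta chains, cells without both transgenic chains or shared barcodes. The transgenic chains were taken to be the most frequent set of receptor chain sequences among tumor cells, an inference from frequency.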

Additional observations from a re-analysis of the deposited data

How the results depend on the processing

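No paired analysis was possible because each group has 1 library and the labels give no replicate numbers. Of the alternatives to the principal results, 25 stayed within the counting interval of the reported value (for the number of pathway genes, within 1.5 times) and 11 did not; for further values these numbers were 25 and 19, and none changed direction. Shares of cells with a UMI moved most. In tumor Tdp-labelled cells, co-detection after thinning to 2000 UMIs was 29.2% for Cd4 with Cd8a, 35.3% for Cd4 with Cd8b1 and 61.2% for Cd8a with Cd8b1, and with 2 UMIs required it was 44.2%, 48.2% and 79.5%. The Cd8b1 share of lymph node Cd4-labelled cells was 4.69% after thinning and 1.92% with 2 UMIs. Fewer reads per cell or a higher threshold lowers such shares by construction. The Cd4 log2 ratio of tumor Tdp- to Cd4-labelled cells was −0.40 with TMM and ranged from −0.49 to −0.56 under the other settings. Pathway genes 2-fold apart numbered 4 with a 50 CPM minimum and 4 with a pseudocount of 10, against 7. The Cd8a share of Cd8 UMIs in tumor Tdp-labelled cells stayed between 40.0% and 40.2% in every setting run. Leaving out the 36 shared barcodes, chosen after seeing the data, moved no value it was run on beyond its counting interval. Depth limits what a missing UMI shows: a median of 2 Cd4 UMIs per cell leaves cells at 0 that may hold Cd4 RNA.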

Other observations

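Label groups under 50 cells were left out of the comparisons. The 6 lymph node cells labelled Tdp, at a median of 7454 UMIs, had Cd8a and Cd8b1 in all 6 and Cd4 in 0, with 49 Cd8a and 89 Cd8b1 UMIs in total (Cd8a share 35.5%, 27.5% to 44.1%). Of the 19 tumor cells labelled Treg, 11 had Cd4, 1 had Cd8a and 2 had Cd8b1. The 1 tumor cell labelled Cd8 had 3 Cd4, 2 Cd8a and 5 Cd8b1 UMIs.

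Tumor Tcell-labelled cells were shallow, at a median of 2040 UMIs, and held mixed patterns: 112 had no member, 102 Cd4 alone, 56 both Cd8 chains without Cd4 and 53 all 3 genes. Cd4 with Cd8a was seen in 13.8% against a product of 14.3%, and Cd8a with Cd8b1 in 26.8% against 13.4%. Gzmb was seen in 96.2% of cells with all 3 genes (87.0% to 99.5%), 78.6% of those with both Cd8 chains only (65.6% to 88.4%), 39.2% of those with Cd4 alone (29.7% to 49.4%) and 34.8% of those with none (26.1% to 44.4%). Its levels in the same order were 1524, 1544, 551 and 565 CPM, so the first pair of sets was alike in level.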
